A study of Anser anser with 2 samples.

Results

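miR-126 and miR-139 are miRNAs for which both arms of the hairpin were read in goose liver, and the balance between the arms differed between a fatty and a normal liver library. They were selected from earlier results of these data, by the opposite change of their arms, as all reads listed under either number with any letter, arm suffix or star, and they are 2 of 854 miRNA numbers listed. Their reads were 1651 of 9737540 in the overfed library and 1175 of 9178938 in the control library, or 0.0170% and 0.0128%. The arm of each read was taken from the sequence of the reference it had been matched to. The level of each arm and its arm balance are therefore descriptions of what chose the members, and no test is made of them. Read lengths and read ends come from the same reads, so they are not independent of that choice and are descriptions too.

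The overfed library came from liver, described as fatty, of male Landes geese overfed for 21 days on a diet rich in carbohydrate, with 3353 kcal, 76 g protein and 15 g fat per kg. The control library came from normal liver of geese that ate at will from a basal diet, whose content per kg was 2873 kcal with 171 g of protein. All 60 birds of the experiment were Landes, a breed raised for fatty liver, and 90 days old. Each group has 1 library, and how many birds each holds is not stated in the labels, so no difference has a replicate check, and every interval is a 95% interval that covers counting error only.

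A miRNA is cut from a hairpin as a duplex of a 5′ strand (5p) and a 3′ strand (3p). One strand is usually kept by an Argonaute protein, and its bases 2 to 8, the seed, choose the target mRNAs, so that a change of arm or of the 5′ end changes the targets. miR-126 lies within the endothelial gene EGFL7 in mammals and fish and is the best known miRNA of the vessel lining. Its 3p strand restrains the inhibitors SPRED1 and PIK3R2 of vascular growth factor signalling, shown in mouse and zebrafish, and its 5p strand restrains the Notch ligand homologue DLK1 in mouse endothelium. miR-139 lies within the phosphodiesterase gene PDE2A in human and is known from human liver cancer as a miRNA lost in tumours, with the kinase ROCK2 among its targets.

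The commonest read of each arm is given first, because the results turn on where these reads start and end. Letters are as in the deposited tables, with T for U, 5′ to 3′, and capitals mark the seed.
miR-126-5p, 21 nt: cATTATTActtttggtacgcg
miR-126-3p, 21 nt: cGTACCGTgagtaataatgcg
miR-139-5p, 23 nt: tCTACAGTgcatgtgtctccagt
miR-139-3p, 20 nt: tGGAGATGcggccctgttgg

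The commonest read of miR-126-5p matched the mouse reference, and that of miR-126-3p the cow reference, without a mismatch. Those of miR-139 matched zebra finch references without a mismatch. Counting from 1 at the 5′ end of the reference, the cow miR-139 reference differed from the goose 5p read by C12T, and the mouse miR-139-3p reference differed from the goose 3p read by C7T, which lies within the seed. By listed name, the cow reference of the 5p arm held 1 read in the overfed library and 0 in the control library. The mouse reference of the 3p arm held 2 and 0. Whether these reads carry the cow or mouse base was not determined. Among the commonest reads of the 1024 arms listed, no other had the seed of miR-126-5p, miR-126-3p or miR-139-5p. The seed of miR-139-3p was also found in the commonest reads listed under the names miR-1767, miR-4306 and miR-4764-5p. Levels are given here as reads in each 1000000 listed reads (RPM). In sum these names had 0.513 RPM in the overfed library and 0.436 in the control library. Whether their few reads come from the miRNAs so named was not tested.

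miR-126-5p was the most abundant of the 4 arms. It had 714 reads or 73.3 RPM in the overfed library (68.0 to 78.9) and 546 reads or 59.5 RPM in the control library (54.6 to 64.7). miR-126-3p had 216 reads or 22.2 RPM in the overfed library (19.3 to 25.3) and 253 reads or 27.6 RPM in the control library (24.3 to 31.2). The 5p arm was thus higher and the 3p arm lower in the overfed library, with log2 ratios of 0.30 (0.14 to 0.47) and -0.31 (-0.58 to -0.046). With edgeR's TMM scaling factors, which lower all log2 ratios by 0.28, the 5p ratio was 0.03 (-0.14 to 0.19) and the 3p ratio -0.59. The 3p ratio was -0.22 (-0.49 to 0.048) when scaled without miR-122 and -0.13 (-0.51 to 0.24) with tags identical to a stretch of their reference, so its interval then includes 0. Both arms together stood at 95.5 RPM in the overfed library and 87.0 in the control library, a log2 ratio of 0.13 with an interval (-0.0042 to 0.27) that includes 0. In whole liver, a difference in the number of cells of a type and one in RNA per cell cannot be told apart.

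miR-139-3p had 570 reads or 58.5 RPM in the overfed library (53.8 to 63.5) and 257 reads or 28.0 RPM in the control library (24.7 to 31.6), a log2 ratio of 1.06 (0.85 to 1.28). miR-139-5p had 151 reads or 15.5 RPM in the overfed library (13.1 to 18.2) and 119 reads or 13.0 RPM in the control library (10.7 to 15.5). Its log2 ratio of 0.26 had an interval (-0.098 to 0.62) that includes 0, and it was -0.017 with TMM factors. The miR-139-3p arm was therefore the only one of the 4 at least 2 times apart between the libraries, and with TMM factors (0.79) or DESeq2's median-of-ratios factors (0.89) it was not. Among 107 arms with a mean of at least 10 RPM, 9.35% were at least 2 times apart with an interval excluding equality; 8.41% of the 107 were so in the higher direction, like miR-139-3p, and 1 arm was lower in the overfed library.

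**Figure D1:**
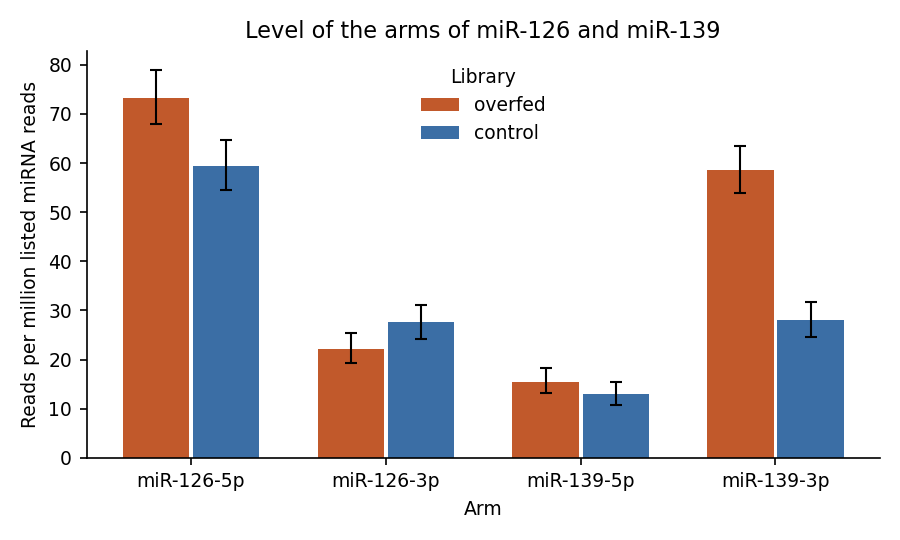
Level of each arm in RPM (vertical axis) in the overfed and control libraries, 1 library each, with exact Clopper-Pearson 95% intervals as error bars. miR-139-3p stands at 58.5 against 28.0, while miR-139-5p stands at 15.5 against 13.0 with intervals that overlap.

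Read as arm balance, the 5p arm made up 76.8% of miR-126 reads in the overfed library (73.9% to 79.5%) and 68.3% in the control library (65.0% to 71.6%). That is 3.31 reads of 5p per read of 3p in the overfed library and 2.16 in the control library. The odds of 5p over 3p were thus 1.53 times higher in the overfed library, a log2 change of 0.62 (0.30 to 0.93). In miR-139 the 3p arm was the major one in both libraries, with 3.77 reads per read of 5p in the overfed library and 2.16 in the control library. Its 5p arm made up 20.9% of reads in the overfed library (18.03% to 24.1%) and 31.6% in the control library (27.0% to 36.6%), a log2 change of odds of -0.81 (-1.23 to -0.38). In both miRNAs the arm that was already the major one took a larger share in the overfed library. These shares chose the members, and other miRNA numbers went either way. The major 5p arm of miR-30 held 78.3% in the overfed library and 85.2% in the control library, and that of miR-17 69.0% and 58.8%. Because both arms of 1 library are compared with each other, no scaling between libraries enters these shares.

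Changes of this size were common. Of 23 miRNA numbers with at least 100 reads of each arm over both libraries, 0% changed their odds by 2 times or more. A change of at least 1.5 times with an interval excluding 0 was found in 39.1%, 5 toward 5p and 4 toward 3p in the overfed library, with both miR-126 and miR-139 among the 9. The median absolute log2 change over the 23 was 0.35. miR-139 had the lowest value of the 23, ahead of miR-30 (-0.67, letters summed) and miR-1388 (-0.67), and miR-126 the fifth highest. The highest were miR-210 at 0.86 (0.081 to 1.65), miR-193 at 0.77 (0.52 to 1.01) and miR-144 at 0.67 (0.30 to 1.03). The 3 numbers nearest to miR-126 in log2 change, over these 2 libraries, were miR-17 (0.64), miR-144 and miR-193, and those nearest to miR-139 were miR-30, miR-1388 and miR-425 (-0.63).

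**Figure D2:**
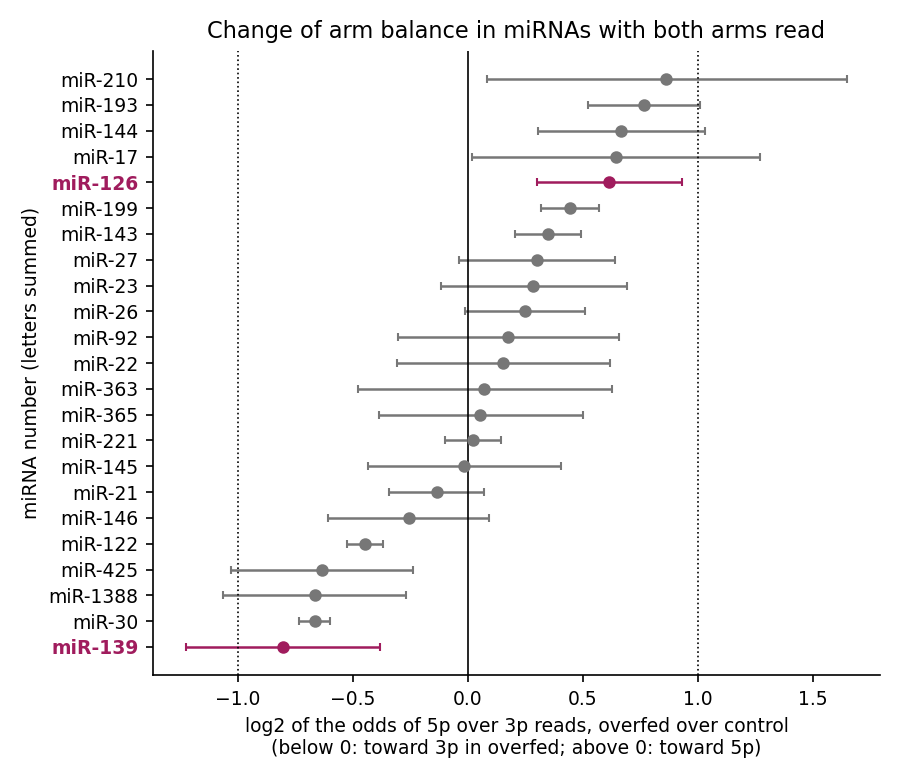
Change of arm balance for the 23 miRNA numbers with at least 100 reads of each arm, as log2 of the odds of 5p over 3p reads in the overfed over the control library (horizontal axis), with exact conditional 95% intervals. Dotted lines mark a change of 2 times. miR-139 at -0.81 is the lowest point and miR-126 at 0.62 the fifth highest, and no point lies beyond a dotted line.

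Read length set the arms of miR-139 apart. In the overfed library 61.2% of miR-139-3p reads (57.1% to 65.2%) had 18 to 20 nt, against 42.8% in the control library (36.7% to 49.1%), a difference of 18.4 percentage points (10.9 to 25.8). The commonest read, of 20 nt, held 28.1% of the arm's reads in the overfed library and 22.2% in the control library. The same read without its last base, of 19 nt, held 24.4% and 13.6%. The reads that carry 2 and 3 further bases at the 3′ end, of 22 and 23 nt, the longer being the whole zebra finch reference, held 8.25% and 7.19% in the overfed library against 13.2% and 11.3% in the control library. These forms differ only at their 3′ end, as shown here with the seed in capitals.
miR-139-3p, 19 nt: tGGAGATGcggccctgttg
miR-139-3p, 20 nt: tGGAGATGcggccctgttgg
miR-139-3p, 22 nt: tGGAGATGcggccctgttggaa
miR-139-3p, 23 nt: tGGAGATGcggccctgttggaat

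Every read of miR-139-3p in the overfed library, and 98.4% in the control library, started at the same base, so the seed was shared by short and long forms. Split by length, the 18 to 20 nt reads stood at 35.8 RPM in the overfed library and 11.98 in the control library, a log2 ratio of 1.58 (1.27 to 1.90). Reads of 21 nt or more stood at 22.7 RPM in the overfed library and 16.0 in the control library, a log2 ratio of 0.50 (0.20 to 0.81). The higher level of miR-139-3p was therefore larger in its 18 to 20 nt reads, and the 2 intervals do not overlap. Both are parts of the level that chose miR-139, so the split is a description.

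miR-139-5p did not show this. Reads of 18 to 20 nt made up 7.28% of it in the overfed library (3.69% to 12.7%) and 6.72% in the control library (2.95% to 12.8%), and its 23 nt reads were 60.3% and 58.0%. Among reads of 21 nt or more, the 5p arm held 38.8% of miR-139 in the overfed library (33.7% to 44.0%) and 43.0% in the control library (36.9% to 49.3%). The log2 change of odds among these longer reads was -0.25 with an interval (-0.74 to 0.24) that includes 0, against -0.81 over all reads. Among the 18 to 20 nt reads the 5p arm held 11 of 360 in the overfed library, or 3.06%, and 8 of 118 in the control library, or 6.78%. Their log2 change of odds was -1.21, and its interval (-2.69 to 0.35) includes 0 as well.

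**Figure D3:**
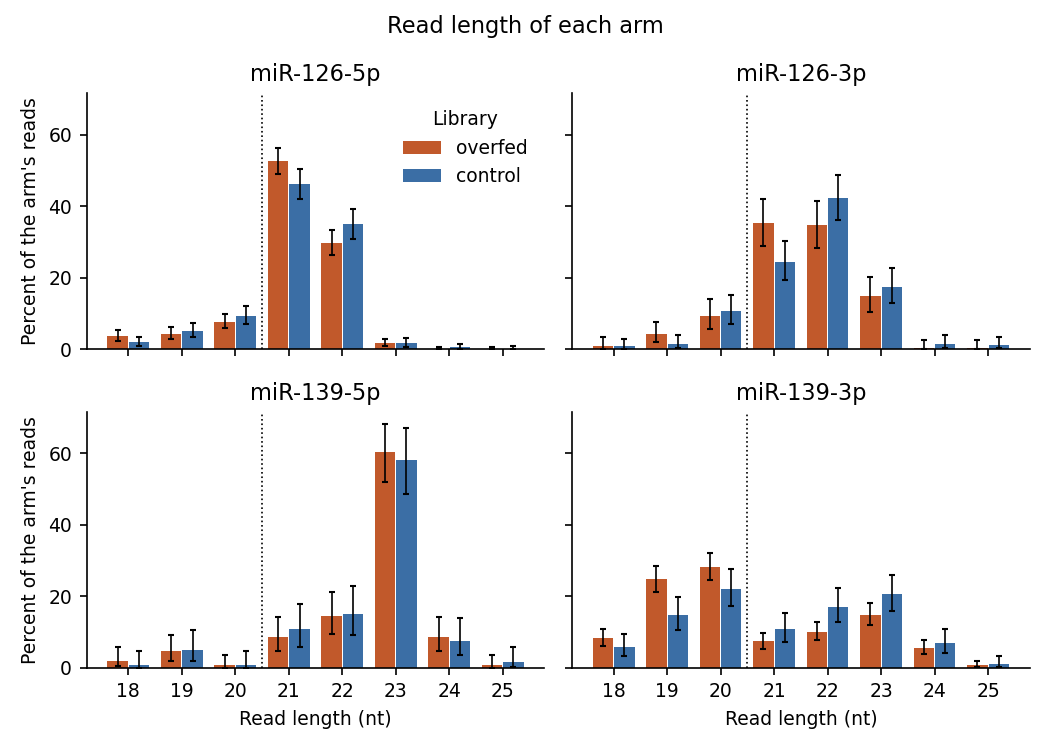
Read length in nt (horizontal axes) against the percent of the arm's reads (vertical axes) for the 4 arms, with exact Clopper-Pearson 95% intervals and a dotted line between 20 and 21 nt. In miR-139-3p the overfed library holds 61.2% of reads left of the line against 42.8% in the control library, while in miR-139-5p the 2 libraries hold 7.28% and 6.72% there.

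Short reads were more common in the overfed library as a whole. Reads under 21 nt made up 5.29% of all listed reads in the overfed library and 4.15% in the control library, and 11.1% and 8.27% without miR-122, the hepatocyte miRNA that holds 74.4% and 72.7% of reads. Of 97 arms with at least 100 reads in each library, 70 had a larger short share in the overfed library and 23 a smaller one, with a median difference of 1.56 percentage points. A difference of at least 10 points with intervals apart was found in 10.3% of the 97, all higher in the overfed library. The second largest difference was that of miR-139-3p. Its short reads are among the reads by which miR-139 was chosen, so this rank is not independent of that choice. RNA was cut from a gel at 20 to 30 nt, so 18 and 19 nt reads lie below the stated range. The part of size selection or RNA quality in the miR-139-3p difference was not tested.

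The change of the miR-126 arm balance was seen in the longer reads. Among reads of 21 nt or more the 5p arm held 76.5% in the overfed library (73.4% to 79.4%) and 67.5% in the control library (63.8% to 71.0%), a log2 change of odds of 0.65 (0.31 to 0.99). Among reads of 18 to 20 nt it held 78.3% and 73.2%, with a change of 0.41 whose interval (-0.46 to 1.28) includes 0. Short reads were 15.7% of miR-126-5p in the overfed library and 16.5% in the control library. In miR-126-3p they were 14.4% and 13.0%. The differences were -0.80 and 1.31 percentage points, and both intervals include 0. With a limit of 22 bases, which also counts the 21 nt reads, the differences were 5.71 (0.31 to 11.1) and 11.99 (2.69 to 21.1) points, and neither interval includes 0. No share over all arms is given at this limit, so these differences are not shown to be particular to miR-126. At the limit of 21 bases, 70 of 97 arms had a larger short share in the overfed library.

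**Figure D4:**
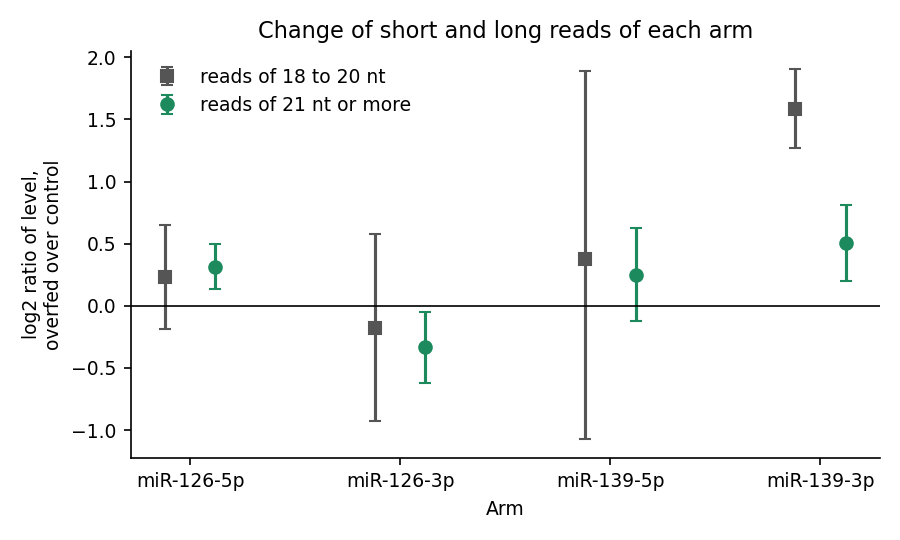
log2 ratio of level, overfed over control (vertical axis), of the 18 to 20 nt reads and of the reads of 21 nt or more of each arm, with exact conditional binomial 95% intervals. The short reads of miR-139-3p at 1.58 lie above its longer reads at 0.50, and in the other 3 arms the intervals of short and longer reads overlap.

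Reads that ended beyond the commonest read took a smaller share of both miR-126 arms and of miR-139-3p in the overfed library. In miR-139-3p they held 38.8% in the overfed library and 58.0% in the control library. That is a difference of -19.2 percentage points (-26.5 to -11.7). Such later-ending reads numbered 221 in the overfed library and 149 in the control library. Reads of 21 nt or more of this arm numbered 221 and 147. The difference is therefore the short-read difference of miR-139-3p measured again, and is no further result. A short-read difference of at least 10 points with intervals apart was found in 10.3% of 97 arms. The miR-139-5p difference was -0.81 points, with an interval (-8.82 to 6.69) that includes 0. Apart from that short-read share, no share over all arms is given for these ends. In miR-126-5p the end of the 21 nt form held 53.2% of reads in the overfed library (49.5% to 56.9%) and 46.7% in the control library (42.5% to 51.0%), and later ends held 31.4% (28.0% to 34.9%) and 37.5% (33.5% to 41.8%). The difference in later ends was -6.17 percentage points (-11.6 to -0.77). Reads 1 base longer ended mainly in A, at 24.6% and 26.4% of the arm, and less often in T, at 4.20% (2.85% to 5.94%) and 7.33% (5.29% to 9.84%). In miR-126-3p, ends beyond that of the commonest read held 29.6% of reads in the overfed library (23.6% to 36.2%) and 39.9% in the control library (33.8% to 46.2%), a difference of -10.3 points (-19.01 to -1.34). Reads 1 base longer that end in A were the main part, 23.1% in the overfed library and 30.4% in the control library. The intervals of the difference for the A forms include 0 in both miR-126 arms. In miR-126-5p the T form differed by -3.12 points (-5.98 to -0.44) and the rarer C form by -1.23 (-2.72 to -0.028). In miR-126-3p the T form differed by -2.29 points, with an interval (-6.36 to 1.85) that includes 0. Whether the added base is encoded in the goose hairpin was not tested.

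The 5′ end set miR-126-3p apart from the other 3 arms. Its reads had 3 starts, shown here by the commonest read of each start with its seed in capitals.
miR-126-3p, commonest start: cGTACCGTgagtaataatgcg
miR-126-3p, 1 base earlier: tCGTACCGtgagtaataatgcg
miR-126-3p, 2 bases earlier: cTCGTACCgtgagtaataatgcg

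The commonest start, that of the cow reference, held 54.6% of miR-126-3p reads in the overfed library (47.7% to 61.4%) and 53.8% in the control library (47.4% to 60.0%). The start 1 base earlier, that of the mouse and chicken references and of the seed under which miR-126-3p targets are usually described, held 31.5% (25.3% to 38.1%) and 35.2% (29.3% to 41.4%). The start 2 bases earlier held 13.0% (8.79% to 18.2%) and 9.88% (6.50% to 14.2%). The most frequent seed of the arm was thus shifted by 1 base from that of the mouse reference in both libraries, and for each start the intervals of the libraries overlapped. The level of the mouse-start form was 6.98 RPM in the overfed library and 9.70 in the control library. Its log2 ratio was -0.47 (-0.95 to -0.0018). Scaling without miR-122 raises all log2 ratios by 0.09, and this interval then includes 0. The commonest start stood at 12.1 and 14.8 RPM, with a log2 ratio of -0.29 (-0.66 to 0.076), and the intervals of both forms overlap. The start 2 bases earlier stood at 2.88 and 2.72 RPM, with a log2 ratio of 0.078 (-0.75 to 0.92).

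The other arms had 1 start. The commonest start held 99.02% of miR-126-5p reads in the overfed library and 99.1% in the control library, and 99.3% and 97.5% of miR-139-5p reads. Over 97 arms with at least 100 reads in each library, the median share of the commonest start was 97.6% in the overfed library and 97.8% in the control library. A share below 90% in both, interval included, was found in 34% of the 97, and miR-126-3p had the twelfth lowest share. Where the references of an arm did not share 10 bases in a row, only the group with most reads was used there, so some paralogues are left out of these shares. Counting only reads with the commonest start of each arm, the log2 change of the miR-126 arm balance was 0.59 (0.19 to 0.996) and that of miR-139 -0.80 (-1.22 to -0.38).

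**Figure D5:**
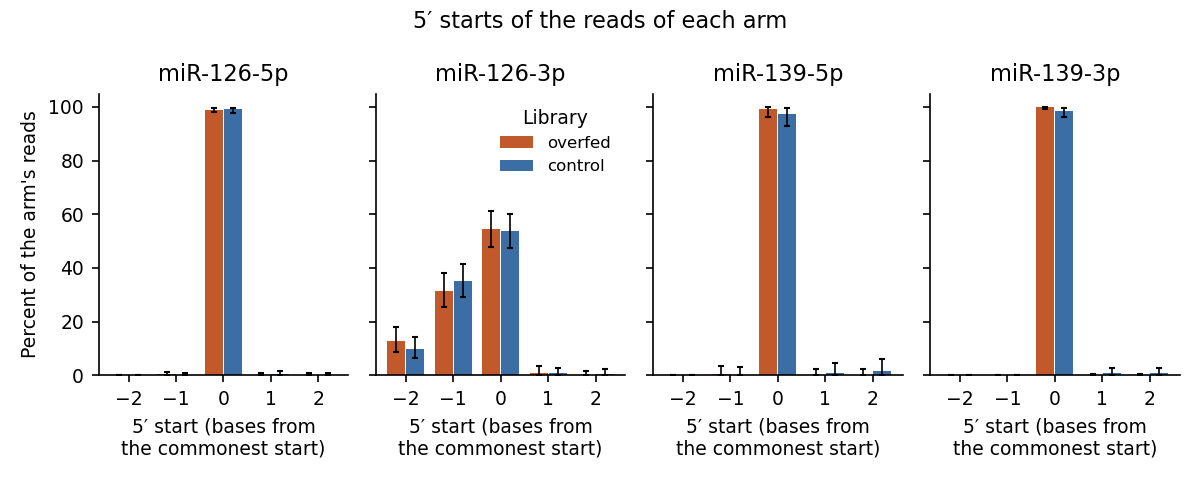
Percent of each arm's reads (vertical axes) by 5′ start, in bases from the commonest start of the arm (horizontal axes, negative is earlier), with exact Clopper-Pearson 95% intervals. miR-126-3p spreads over 3 starts, with 54.6% in the overfed and 53.8% in the control library at the commonest one, while the other arms have at least 97.5% there in both libraries.

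How a read was named bore on miR-139-3p. Its 18 nt read matched the lizard reference with 1 mismatch, and that reference differs from the goose read by A8G, within the seed, although the same 18 bases begin the zebra finch reference. This read held 8.25% of the arm in the overfed library and 5.45% in the control library. By sequence it belongs to the same series of forms that differ only in where the 3′ end lies. Reads listed without a mismatch were 83.5% of miR-139 in the overfed library and 82.7% in the control library, and 96.1% and 92.5% of miR-126. Without the mismatched reads the log2 change of odds was -0.70 for miR-139 and 0.58 for miR-126.

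Some further features of the arms are listed here without a comparison with other arms. The base content was not used to choose the members, while the spread over forms comes from the reads that chose them. Of the first 4 bases, 3 are A or T in both 5p arms and 2 in both 3p arms, for the commonest reads. The commonest read of miR-139-3p is the richest in G and C at 65% of its bases, against 47.8% in miR-139-5p, 47.6% in miR-126-3p and 38.1% in miR-126-5p. Both 3p arms were spread over more forms than the 5p arms. The commonest read held 22.7% of miR-126-3p reads in the overfed library and 16.6% in the control library, and 28.1% and 22.2% of miR-139-3p reads. It held 52.1% and 44.9% of miR-126-5p reads and 58.3% and 51.3% of miR-139-5p reads.

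miR-126 was then set beside a list of 25 miRNAs of endothelium and vessel growth. The list includes miR-126 itself and was chosen with earlier results of these data known. Of the 25, 22 had reads (miR-424, miR-503 and miR-296 had none) and 16 arms passed 10 RPM. Of these arms 8 were higher and 4 lower in the overfed library beyond counting error, with a median log2 ratio of 0.17. miR-126-5p is among the 8 and miR-126-3p among the 4, so these counts include the values that chose miR-126. Over all 107 arms past 10 RPM, 54 were higher and 30 lower, with a median of 0.15. The most abundant of the list were miR-222-3p (log2 ratio 1.56) and miR-221-3p (0.96), which restrain the receptor KIT in human endothelium. They were followed by miR-10a-5p (-0.44), miR-92a-3p (0.34), miR-24-3p (-0.15) and miR-221-5p (0.99). miR-126 is the best known miRNA of this cell type. The log2 ratio of its summed level, 0.13, must lie between those of its arms, 0.30 and -0.31. As it was chosen for the opposite change of its arms, a smaller summed difference is no result about endothelium.

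Markers of other cell types gave these sums. Stellate or mesenchymal miRNAs stood at 6029 RPM in the overfed library and 7276 in the control library, and leukocyte miRNAs at 2801 and 2680. In each of these sums 1 arm held most: miR-199-3p at 4123 and 5053 RPM, and miR-146-5p at 2662 and 2560. Of the stellate arms past 10 RPM, 1 was higher and 5 lower in the overfed library beyond counting error. Of the arms of the leukocyte list 2 were higher, with miR-223-3p at a log2 ratio of 0.62, and 0 lower. miR-150-5p, a leukocyte miRNA outside that list and named after its value was seen, went the other way. Its log2 ratio was -0.37 (-0.69 to -0.053). Red cell miRNAs stood at 318 and 360 RPM, epithelial ones at 62.8 and 82.5, muscle ones at 882 and 823, and neuronal ones at 2.46 and 1.42. The muscle sum was mostly that of miR-1-3p, at 875 and 819 RPM, the only arm of the muscle list past 10 RPM. miR-499-5p, a muscle miRNA outside that list and named after its value was seen, also passed it. It stood at 16.3 RPM in the overfed library and 7.19 in the control library, a log2 ratio of 1.18 (0.76 to 1.62). The red cell arms went both ways, 1 higher and 2 lower beyond counting error, and no neuronal arm passed 10 RPM. All names of these lists had reads except miR-200c and miR-141 of the epithelial list, where 3 of 5 did. Of the epithelial arms past 10 RPM, 0 were higher and 2 lower in the overfed library beyond counting error. These were miR-200a-3p at a log2 ratio of -0.29 and miR-200b-3p at -0.72. miR-203-3p, an epithelial miRNA outside the epithelial list and named after its value was seen, went the other way. It stood at 219 RPM in the overfed library and 43.1 in the control library. The sums and counts of all these lists, the vascular one included, are scaled by total listed reads. TMM factors lower all log2 ratios by 0.28. That shift is larger than the log2 ratios of miR-146-5p (0.056) and miR-1-3p (0.094), so their direction depends on the scaling. The part of these cell types in the levels of miR-126 and miR-139 was not tested.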

How the data were processed

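Small RNA of goose liver was sequenced in 1 overfed and 1 control library on Illumina, from 20 to 30 nt gel fractions of 10 μg total RNA, per the labels' protocols. The authors deposited the read count of every distinct sequence (tag) matched to a miRNA of any species, with its best reference, an alignment score, and how many bases matched, mismatched or fell in gaps. These counts are whole numbers without normalization, and the deposited score was not used. No label or header names the aligner or the miRNA database. The totals of 9737540 and 9178938 reads are of listed miRNA reads, not of whole libraries: 1 read was 0.103 RPM in the overfed and 0.109 in the control library, and a count of 0 allows 0.308 and 0.327 RPM (3 counts).

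References of 1 miRNA number, letters summed, that share 10 bases in a row were joined into an arm named by its -5p or -3p references. Starts and ends were placed against the arm's commonest tag, allowing shifts of up to 4 bases. Shares have exact Clopper-Pearson intervals, level ratios exact conditional binomial ones, odds ratios exact conditional ones, and differences of shares Newcombe's, combined from the exact bounds. Reads carry no molecular identifiers, so intervals cover counting error only. No p-value was computed. Functions were tested on simulated data. Members, lists, thresholds and tests were chosen with earlier results of these data known. The text names both members in full, the 3 numbers nearest to each and the 3 largest changes each way in arm balance, the 6 most abundant arms of the vascular list, and arms sharing a seed. Positions of the miRNA genes are not given, since no goose annotation of miRNAs and no goose hairpin sequence was at hand. Alternatives covered scaling (TMM of edgeR 4.0.16, median of ratios of DESeq2 1.42.0, R 4.3.3), minimums, sizes, mismatches, tag lengths and starts. Intervals came from scipy 1.17.1 and numpy 2.4.6 in Python 3.11.15, tables from pandas 2.3.3 and figures from matplotlib 3.10.9.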

Additional observations from a re-analysis of the deposited data

How the results depend on the processing

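No paired analysis was possible because only 1 library stands in either group, and no replicate could be left out. The log2 change of the miR-126 arm balance stayed above 0 and within its interval under all 9 alternatives, from 0.38 (commonest tags, interval -0.30 to 1.05) to 0.69. That of miR-139 stayed below 0 under the same 9 and lay outside its interval under 3: -0.25 with tags of at least 21 bases, -0.22 with tags of 21 to 23 bases, both with intervals including 0, and -1.62 with arms taken from -5p or -3p names alone, which leaves few reads and drops the starred and bare names. Tags under 21 bases, tags within the gel range and tags without a mismatch were chosen after seeing the data. The count of arm pairs changed by 2 times was 0, and 1 with a minimum of 20 reads (miR-222), 2 with tags of at least 21 bases (miR-199 and miR-425) and 9 with a size of 1.5 times. The count of arms apart by level, 10, was 40 without a minimum and 5 with a minimum of 100 RPM; with TMM factors it was 8, of which 3 higher and 5 lower. Shifts of all log2 ratios were -0.28 with TMM factors, -0.18 with median-of-ratios factors and 0.09 without miR-122. The count of arms apart by short reads, 10, was 18 with 5 points, 1 with 20 points and 3 with a minimum of 1000 reads. With a limit of 22 bases, which takes in 21 nt reads, the short share of miR-126-5p differed by 5.71 points (0.31 to 11.1). That of miR-126-3p differed by 11.99 points (2.69 to 21.1). These intervals exclude 0 where those at 21 bases include it, and no share over all arms is given at 22 bases. The miR-139-3p difference ran from 12.4 to 20.9 points. At these depths the log2 ratio of 0.26 of miR-139-5p could not be told from 0.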
